A study of Mus musculus with 89 samples.

Results

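The lungs of BALB/c mice were compared with those of C57BL/6 mice 168 h after a challenge with the allergen Aspergillus fumigatus (Af), a common mould, over all genes measured. The comparison rests on 10 of the 89 arrays of the series, 6 from BALB/c and 4 from C57BL/6 lungs, taken by strain and treatment as the labels give them. All 10 mice were males of 7 to 8 weeks that had Af injected into the peritoneum on day 0 and day 7, had it instilled into the nose on day 13, breathed air for 2 h and were killed 12 h after the air. The other arrays came from mice of both strains and of SP-D-/- mice, which lack surfactant protein D, after air or ozone (3 ppm for 2 h) alone or at 24, 96 or 168 h after Af. RNA came from the left lobe of perfused lungs, so each value is a mean over all cells of the lobe. In such whole tissue, fewer cells of a type and less RNA per cell cannot be told apart. Nothing beyond a replicate number says that the arrays of a group are separate animals, so p-values measure the spread between arrays.

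BALB/c and C57BL/6 are inbred strains that differ at many loci of the immune system. They carry different haplotypes of the major histocompatibility complex (MHC), whose class II molecules present peptides to helper T cells, and of the natural killer gene complex, which encodes the Ly49 receptors of natural killer cells. In allergen models BALB/c mice are known for a stronger type 2 response, in which interleukins 4, 5 and 13 drive eosinophils, mucus and IgE.

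The strain labels were checked on 77 genes that differed between the strains in air, a comparison that shares no array with the one at 168 h. On an index that is 1 at the BALB/c air mean and -1 at the C57BL/6 air mean, the BALB/c arrays lay between 0.43 and 0.83 and the C57BL/6 arrays between -1.0 and -0.73. Lung markers were high on all 10 arrays, with Sftpc (surfactant protein C of alveolar type 2 cells) at 12.52 to 13.20 and Sftpd at 10.05 to 11.15 on the log2 scale of the deposited signals. Elsewhere in the series 5 arrays went against their labels by this index or by the level of Sftpd, none of them in this comparison. Sftpd alone marked BALB/c replicate 5 at 24 h after Af (index 0.28, Sftpd 7.68). It also alone marked SP-D-/- replicate 1 at 96 h after Af with ozone (index -0.95, Sftpd 10.94). All 90 genes called below were also called without these 5 arrays in the fit. The hybridization controls, transcripts added to every sample before hybridization, averaged 11.36 ± 0.84 on BALB/c arrays and 10.43 ± 0.56 on C57BL/6 arrays (log2, SD, n = 6 and 4; exact permutation test, two-sided, p = 0.0857, adjusted over 2 measures 0.171). Their level was 9.87, 11.12, 11.18, 12.08, 11.87 and 12.05 on BALB/c replicates 1 to 6, against 9.92, 9.99, 10.79 and 11.03 on C57BL/6 replicates 2, 3, 4 and 6. BALB/c replicates 2 to 6 thus stood above all C57BL/6 arrays, with replicates 4, 5 and 6 the highest, and results are also given without these 3.

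Of 15065 genes tested, 90 differed between the strains at an adjusted p under 0.05 (0.597% of the genes; limma with Benjamini-Hochberg adjustment), 37 of them higher in BALB/c (0.246%) and 53 lower (0.352%). An unadjusted p under 0.05 was reached by 1404 genes, and the median difference over all genes was -0.08. With the replicate number as a block, 59 genes were called, 33 higher and 26 lower, and 52 of these were among the 90. After cyclic loess normalization 44 genes were called higher and 36 lower. Without BALB/c replicates 4, 5 and 6, 14 genes were called and all 14 were among the 90. Those higher in BALB/c were H2-Ea, Gbp2b, Tmem87a, Baiap2l1, Cntnap2, Fbp2, Map3k7cl, Pianp and Polr3gl. Those lower were Cep85, Pttg1, Trim12a and Tdg, and Pdxdc1 on the probe set that represented it, while another of its probe sets was higher. Leaving out 1 array at a time gave 43 to 198 calls, the most without BALB/c replicate 1 (198) or 2 (149) and the fewest without C57BL/6 replicate 3 (43). The groups did not overlap in 64 of the 90 called genes (21 higher and 43 lower in BALB/c), against 3.37% of all genes tested. For 17 of the 37 higher genes every C57BL/6 array was at or under 4.45, the level used to filter low genes, and for 6 of the 53 lower genes every BALB/c array was. In these genes low signal cannot be told from background, so folds are given as lower bounds.

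**Figure D1:**
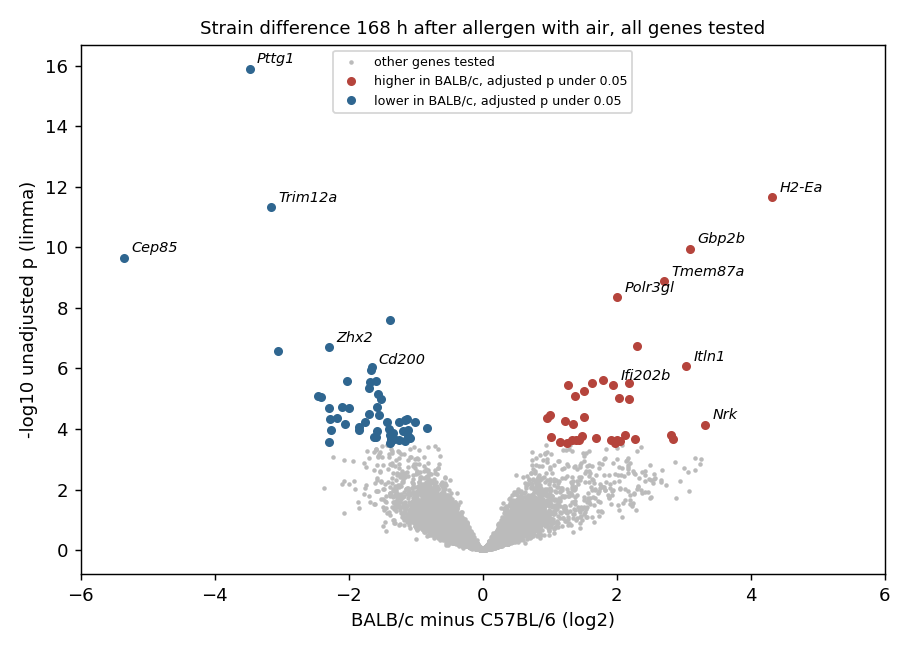
Each point is 1 of 15065 genes, with the log2 difference (BALB/c minus C57BL/6) on the x axis and the negative log10 of limma's unadjusted p on the y axis. Red points are the 37 genes higher and blue points the 53 genes lower in BALB/c at an adjusted p under 0.05, with H2-Ea (4.32) and Cep85 (-5.35) farthest out.

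The largest rise was in H2-Ea, which encodes the alpha chain of the class II molecule I-E. Its signal was 7.89 at the lowest, 9.05 at the median and 9.65 at the highest in BALB/c lungs, against 4.32, 4.42, 4.79 and 4.89 in C57BL/6 lungs. The groups were far apart, with a log2 difference of 4.32 ± 0.52 (SE), at least 19.4-fold with values under the filter level of 4.45 raised to it, as for every such fold below (adjusted p = 1.67e-08). C57BL/6 mice are known to carry a deletion in the promoter of this gene and to make no I-E, and RefSeq's mouse reference, itself a C57BL/6 genome, gives H2-Ea as a transcribed pseudogene. The other probe sets of H2-Ea above the filter were higher in BALB/c too, by 7.06 ± 0.70 and 0.67 ± 0.19.

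No other class II gene was called on the probe set that represented it. H2-Eb1, the beta chain that pairs with H2-Ea, was 9.40 at the lowest, 9.62 at the median and 9.97 at the highest in BALB/c lungs, against 9.82, 10.69, 9.92 and 9.87 in C57BL/6 lungs. The groups overlapped, with a log2 difference of -0.43 ± 0.39 (adjusted p = 0.811). H2-Aa and H2-Ab1, the chains of the other class II molecule I-A, differed by -0.15 ± 0.23 (adjusted p = 0.891) and -0.26 ± 0.42 (adjusted p = 0.895). The other probe sets of H2-Aa went opposite ways. One was at 3.33 in BALB/c and 6.46 in C57BL/6 lungs (-3.13 ± 0.57, adjusted p = 0.000491 over all probe sets tested) and the other differed by 0.46 ± 0.55. Of the 12 class II genes tested, H2-Ea alone was higher in BALB/c, and the median was -0.40.

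Class II promoters share a Y box, the site of the factor NF-Y. The promoters of H2-Aa and H2-Eb1 are shown because these class II genes were not called while H2-Ea was. The reference used here holds none for H2-Ea. Each is RefSeq's window of 300 bases around the start of the gene, most of it before the start (build GRCm38.p6, 5′ to 3′ on the strand of the gene), H2-Aa at chr17:34287774-34288073 on the minus strand and H2-Eb1 at chr17:34305617-34305916 on the plus strand. Capitals mark the letters CTGATTGG, searched on both strands and found in 4.10% of 32851 promoter windows of this length.
H2-Aa: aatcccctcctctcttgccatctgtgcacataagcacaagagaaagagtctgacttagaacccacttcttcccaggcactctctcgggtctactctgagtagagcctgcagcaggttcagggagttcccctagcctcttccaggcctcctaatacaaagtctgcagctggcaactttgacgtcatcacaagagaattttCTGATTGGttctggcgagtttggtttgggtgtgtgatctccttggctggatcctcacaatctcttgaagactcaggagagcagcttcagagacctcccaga
H2-Eb1: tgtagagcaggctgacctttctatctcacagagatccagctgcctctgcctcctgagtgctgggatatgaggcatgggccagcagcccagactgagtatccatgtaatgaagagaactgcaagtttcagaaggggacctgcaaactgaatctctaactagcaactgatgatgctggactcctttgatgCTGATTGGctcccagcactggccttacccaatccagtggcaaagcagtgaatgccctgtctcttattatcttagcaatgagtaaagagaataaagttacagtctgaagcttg

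Gbp2b, which encodes a guanylate-binding protein, an interferon-induced GTPase that acts on intracellular microbes, was 5.15 at the lowest, 7.09 at the median and 7.26 at the highest in BALB/c lungs. In C57BL/6 lungs it was 3.56, 3.91, 3.51 and 3.83. The groups did not overlap, although BALB/c replicate 6 (5.15) lay well under the other BALB/c arrays, and the log2 difference was 3.09 ± 0.41, at least 5.09-fold (adjusted p = 4.22e-07). It was the only one called of 12 guanylate-binding and immunity-related GTPases tested, whose median was -0.37. Gbp2, its neighbour on chromosome 3, was 5.15 at the lowest, 6.77 at the median and 7.71 at the highest in BALB/c lungs, against 7.87, 7.69, 7.53 and 7.28 in C57BL/6 lungs (log2 difference -1.09 ± 0.81, adjusted p = 0.749).

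The promoters of both neighbours are shown because 1 gene was called and the other was not. Both are on the plus strand, Gbp2b at chr3:142594597-142594896 and Gbp2 at chr3:142620413-142620712 (RefSeq, GRCm38.p6, 5′ to 3′). Capitals mark the interferon-stimulated response element, searched on both strands as GAAA, any 2 bases and GAAA, and read here on the opposite strand, which 3.44% of 32851 windows hold. The reference letters are those of C57BL/6, so a match says nothing of the BALB/c sequence.
Gbp2b: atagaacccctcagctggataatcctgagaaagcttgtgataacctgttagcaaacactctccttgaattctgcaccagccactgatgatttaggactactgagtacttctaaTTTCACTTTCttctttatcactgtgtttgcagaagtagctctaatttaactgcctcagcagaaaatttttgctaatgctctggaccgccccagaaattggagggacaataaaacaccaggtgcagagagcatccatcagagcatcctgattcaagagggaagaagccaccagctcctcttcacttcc
Gbp2: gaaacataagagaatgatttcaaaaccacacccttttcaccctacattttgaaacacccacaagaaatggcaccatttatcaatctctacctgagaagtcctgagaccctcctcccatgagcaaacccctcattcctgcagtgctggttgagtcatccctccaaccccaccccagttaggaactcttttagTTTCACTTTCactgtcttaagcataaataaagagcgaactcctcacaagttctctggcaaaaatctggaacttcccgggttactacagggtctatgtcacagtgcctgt

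Ifi202b, an interferon-inducible gene of the p200 family that binds DNA in the cytoplasm, was 5.42 at the lowest, 6.06 at the median and 6.35 at the highest in BALB/c lungs, against 3.68, 3.87, 4.35 and 4.31 in C57BL/6 lungs. It rose by 1.95 ± 0.39 (at least 2.93-fold, adjusted p = 0.00249), with no overlap. It was the only one called of 5 p200 genes tested.

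Klra8, one of the 12 largest falls, encodes Ly49H, the activating receptor with which natural killer cells of C57BL/6 mice recognise cytomegalovirus, and BALB/c mice are known to lack the gene. Its signal was 3.26 at the lowest, 4.21 at the median and 5.16 at the highest in BALB/c lungs, against 7.14, 6.25, 6.11 and 6.77 in C57BL/6 lungs. The groups did not overlap (log2 difference -2.30 ± 0.60, adjusted p = 0.0465), but the call was lost with the replicate block and with any single array left out except BALB/c replicate 6. The other 4 Ly49 genes tested were not called. Ly49 genes are close copies, so transcripts that share probes cannot be told apart.

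Trim12a, a gene of the tripartite motif cluster that holds the retroviral restriction factor Trim5, was 3.68 at the lowest, 3.97 at the median and 4.25 at the highest in BALB/c lungs, against 7.41, 7.05, 6.34 and 7.75 in C57BL/6 lungs. The difference was -3.15 ± 0.39, at least 6.45-fold lower (adjusted p = 2.41e-08), with no overlap. A second probe set of Trim12a, at a low level in both strains, differed by 0.08 ± 0.31, so this fold too is that of the probe set used. None of the other 8 tested genes of that cluster was called.

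Further immune genes among the falls were picked out after their values were seen. Apobec3, a deaminase that restricts retroviruses, averaged 6.96 ± 0.18 in BALB/c and 8.64 ± 0.39 in C57BL/6 lungs (SD, n = 6 and 4), a difference of -1.68 ± 0.33 (SE, adjusted p = 0.00236). Cd200, a surface ligand that restrains macrophages, averaged 8.17 ± 0.42 in BALB/c and 9.84 ± 0.17 in C57BL/6 lungs (-1.67 ± 0.31, adjusted p = 0.00119). Jak3, the kinase of the common gamma chain cytokine receptors, averaged 4.15 ± 0.47 in BALB/c and 6.15 ± 0.21 in C57BL/6 lungs (-1.99 ± 0.44, adjusted p = 0.00857). A second probe set of Jak3 differed by -0.53 ± 0.36. Fcer1g, the signalling chain shared by the high-affinity IgE receptor and Fc gamma receptors, averaged 8.10 ± 0.32 in BALB/c and 9.35 ± 0.17 in C57BL/6 lungs (-1.26 ± 0.29, adjusted p = 0.0181). The groups did not overlap in any of these genes. The call of Fcer1g was lost with the replicate block, and all 4 calls were lost without BALB/c replicates 4, 5 and 6, where the differences were -1.61 ± 0.40 for Apobec3, -1.48 ± 0.37 for Cd200, -1.86 ± 0.52 for Jak3 and -1.07 ± 0.35 for Fcer1g.

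The largest fall was in Cep85, which encodes a centrosomal protein. It was 2.88 at the lowest, 3.65 at the median and 5.75 at the highest in BALB/c lungs, against 8.88, 9.03, 10.09 and 9.30 in C57BL/6 lungs. It fell by 5.35 ± 0.73 (adjusted p = 6.61e-07), at least 24.1-fold since 4 of the 6 BALB/c arrays were under 4.45, with no overlap. A second probe set of Cep85 differed by -0.18 ± 0.25, so this fold holds for the probe set used and not for the gene as a whole. Pttg1 encodes securin, which blocks the separation of sister chromatids until anaphase. It was 5.15 at the lowest, 7.44 at the median and 7.84 at the highest in BALB/c lungs, against 10.19, 10.34, 10.83 and 10.83 in C57BL/6 lungs. All 3 of its probe sets were lower in BALB/c, by 3.48 ± 0.33 on the one used (adjusted p = 1.91e-12) and by 1.54 ± 0.34 and 3.01 ± 0.46 on the others. None of the 26 cell cycle genes tested was called, and their median was -0.33.

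The probe sets of Pdxdc1, a pyridoxal-dependent decarboxylase domain gene, went opposite ways. The one with the higher mean over the series fell by 3.06 ± 0.54 (adjusted p = 0.000358), while a second rose by 4.50 ± 0.55, averaging 8.70 in BALB/c and 4.20 in C57BL/6 lungs, and the other one differed by 0.02 ± 0.37. No direction is therefore given for the gene. Zhx2, a transcriptional repressor, was 3.03 at the lowest, 4.01 at the median and 4.45 at the highest in BALB/c lungs, against 6.22, 6.24, 5.94 and 6.31 in C57BL/6 lungs (-2.30 ± 0.40, adjusted p = 0.000304). BALB/cJ mice are known for an insertion that lowers Zhx2, but the labels do not give the substrain.

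The other falls among the 12 largest were those of Tbc1d24 (-2.46 ± 0.51, adjusted p = 0.00458), a gene of vesicle traffic, Nxpe4 (-2.41 ± 0.51, adjusted p = 0.00485), and Cpne8, a calcium-dependent phospholipid-binding copine (-2.29 ± 0.50, adjusted p = 0.00857). Other probe sets of Tbc1d24 differed by 0.09 ± 0.25 and -1.15 ± 0.36, and a second one of Cpne8 by -0.88 ± 0.36. Acoxl, related to peroxisomal acyl-CoA oxidases, fell by 2.28 ± 0.53 (adjusted p = 0.0167), and here the groups overlapped because C57BL/6 replicate 4 (4.43) lay within the BALB/c range. Duxbl1 fell by 2.27 ± 0.56 (adjusted p = 0.029) and Smim6 by 2.18 ± 0.50 (adjusted p = 0.016). The calls of Nxpe4, Acoxl, Duxbl1 and Smim6 were lost with the replicate block. Npas2, a transcription factor of the clock, fell by 1.37 ± 0.36 (adjusted p = 0.0453), the only one called of 14 clock genes. Its call was lost with the block as well, and it was called in 8 of 21 alternative fits. A second probe set of Npas2 differed by -0.01 ± 0.26.

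Tmem87a, Baiap2l1, Dlc1 and Polr3gl were even within each strain. Tmem87a, a membrane protein of the Golgi, was 7.80 at the lowest, 8.11 at the median and 8.53 at the highest in BALB/c lungs, against 5.0, 5.48, 5.36 and 5.87 in C57BL/6 lungs (2.71 ± 0.39, 6.53-fold, adjusted p = 3.37e-06). Baiap2l1, which links membranes to the actin cytoskeleton, averaged 8.55 ± 0.30 in BALB/c and 6.24 ± 0.17 in C57BL/6 lungs (2.31 ± 0.40, adjusted p = 0.000293). Dlc1, known as a tumour suppressor, averaged 7.88 ± 0.32 in BALB/c and 5.70 ± 0.28 in C57BL/6 lungs (2.18 ± 0.46, adjusted p = 0.00495), while its second probe set differed by -0.21 ± 0.23. Polr3gl, a subunit of RNA polymerase III, averaged 8.91 ± 0.11 in BALB/c and 6.90 ± 0.35 in C57BL/6 lungs (2.01 ± 0.30, adjusted p = 9.39e-06). Fbp2, the muscle form of the gluconeogenic enzyme fructose-bisphosphatase, averaged 6.63 ± 0.88 in BALB/c and 4.59 ± 0.40 in C57BL/6 lungs (2.04 ± 0.43, adjusted p = 0.00492). The groups did not overlap in any of these genes. Polr3gl and Fbp2 were picked out after their values were seen.

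**Figure D2:**
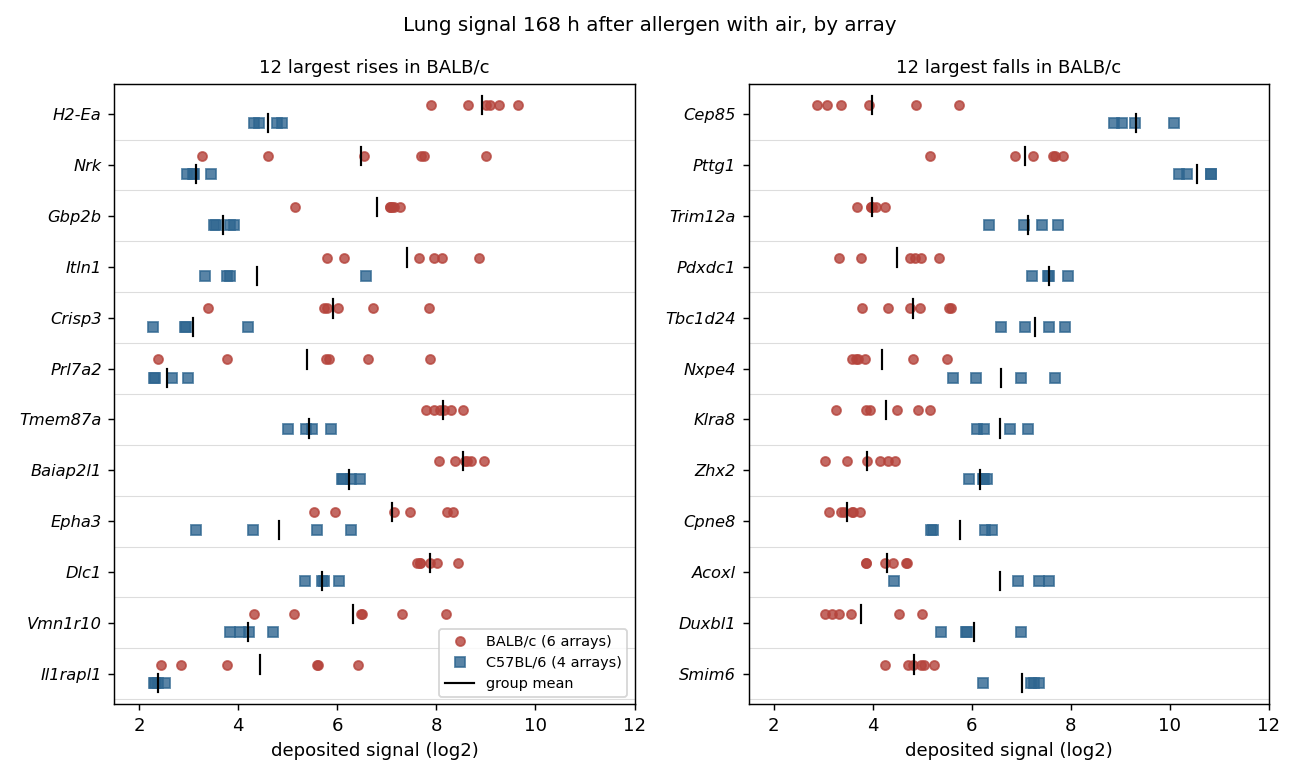
Deposited log2 signal (x axis) of the 12 genes that rose most (left panel) and the 12 that fell most (right panel), with BALB/c arrays as red circles above C57BL/6 arrays as blue squares and a black bar at each group mean. H2-Ea, Tmem87a, Baiap2l1 and Dlc1 show 2 tight groups, while the BALB/c arrays of Nrk spread between 3.27 and 9.01.

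The same strains were compared in 5 other exposures that share no array with the comparison at 168 h. Of the 90 genes, 74 had the same sign in air and 74 in ozone, 79 at 24 h after Af with air, 59 at 96 h after Af with ozone and 78 at 168 h after Af with ozone. Over all genes the same sign was seen in 38.7% to 50.7% in these exposures. In air, 77 genes differed between the strains (0.511% of the genes tested), and 33 were called with the same sign in both, which is 36.7% of the 90 and 42.9% of the 77. The same sign in all 6 exposures was seen in 50 of the 90 genes (18 higher and 32 lower in BALB/c), or 55.6%, against 7.13% of all genes. In all 6 exposures 6 genes were called with the same sign, namely H2-Ea and Gbp2b (higher) and Cep85, Pttg1, Trim12a and Ankrd63 (lower). In 3 of these exposures a strain group held arrays that went against their labels. Without those arrays 76 of the 90 genes had the same sign at 24 h, 62 at 96 h and 78 at 168 h with ozone, and 53 had the same sign in all 6 exposures. The genes called in all 6 were then 11, the 6 above and Tmem87a, Baiap2l1, Polr3gl, Fbp2 (higher) and Tdg (lower). Of the 12 largest rises at 168 h, H2-Ea, Gbp2b, Itln1, Tmem87a, Baiap2l1 and Dlc1 were called with each array left out in turn. So were Cep85, Pttg1, Trim12a, Tbc1d24 and Zhx2 of the 12 largest falls, and Pdxdc1 on the probe set that represented it. Ankrd63 was picked out for its calls and differed by -1.70 ± 0.39 at 168 h (adjusted p = 0.0136), a call lost with the replicate block.

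**Figure D3:**
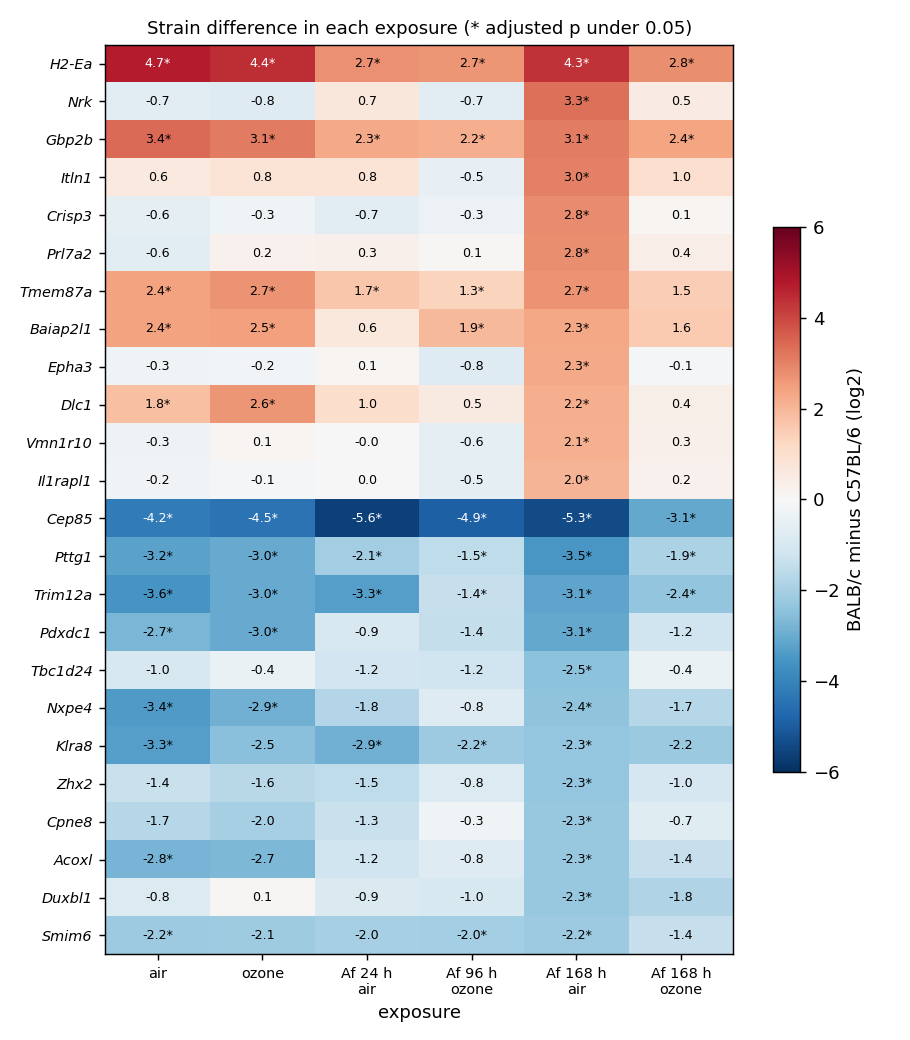
Log2 difference between the strains (BALB/c minus C57BL/6, colour and printed value) for the 12 largest rises and 12 largest falls at 168 h in each of 6 exposures, with a star where the adjusted p was under 0.05. H2-Ea ranged between 2.66 and 4.70 over the exposures, whereas Nrk was at 3.32 at 168 h with air and between -0.77 and 0.67 elsewhere.

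Whether the strain difference itself changed after Af was tested as the difference at 168 h minus the difference in air. No gene was called (0% of the genes tested; limma, smallest adjusted p = 0.767), and 619 had an unadjusted p under 0.05. For H2-Ea this difference of differences was -0.38 ± 0.71, for Gbp2b -0.30 ± 0.57 and for Pttg1 -0.28 ± 0.45 (adjusted p = 0.997 each). For Retnla, the product of alternatively activated macrophages and epithelium that marks type 2 inflammation, it was 1.72 ± 0.43 (adjusted p = 0.767). Retnla was 12.26 at the lowest, 12.35 at the median and 12.80 at the highest in BALB/c lungs, against 11.23, 13.09, 12.80 and 11.92 in C57BL/6 lungs. The groups overlapped at 168 h (0.21 ± 0.31, adjusted p = 0.884), while in air BALB/c had less (-1.51, adjusted p = 0.00104). Relative to air, Retnla rose by 4.25 ± 0.29 in BALB/c (adjusted p = 2.43e-19) and by 2.53 ± 0.31 in C57BL/6 (adjusted p = 1.16e-07).

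Of the 37 genes higher at 168 h, 14 were on the other side of 0 in air. They include Nrk, a Nik-related kinase, Crisp3 (a secreted cysteine-rich protein), Prl7a2 (a placental prolactin relative), Epha3 (an ephrin receptor), Vmn1r10 (a vomeronasal receptor), Il1rapl1 (an interleukin 1 receptor relative of neurons) and Cd226 (an activating receptor of lymphocytes). Nrk was 3.27, 4.60, 6.54, 7.68, 7.74 and 9.01 on BALB/c replicates 1 to 6, against 3.45, 2.97, 3.10 and 3.09 in C57BL/6 lungs. BALB/c replicate 1 was thus within the C57BL/6 range and replicates 3 to 6 were high (3.32 ± 0.79, adjusted p = 0.0209). Prl7a2 was 2.39, 3.77, 5.78, 5.84, 6.62 and 7.87 on BALB/c replicates 1 to 6, against 2.98, 2.31, 2.67 and 2.32 in C57BL/6 lungs, the same split (2.81 ± 0.71, adjusted p = 0.0373). The others among the 12 largest rises were Crisp3 (2.83 ± 0.73, adjusted p = 0.0431), Epha3 (2.28 ± 0.58, adjusted p = 0.0431), Vmn1r10 (2.12 ± 0.53, adjusted p = 0.0374) and Il1rapl1 (2.05 ± 0.53, adjusted p = 0.0453). Other probe sets of Epha3 differed by 0.52 ± 0.38 and -0.10 ± 0.55. With the replicate block the calls of Epha3 (adjusted p = 0.0748) and Cd226 (adjusted p = 0.0523) were lost. With only the 2 groups in the fit the calls of all the genes named here were lost (adjusted p between 0.121 for Cd226 and 0.296 for Il1rapl1). Of 21 alternative fits, Nrk was called in 10, Crisp3 and Epha3 in 9, Prl7a2, Vmn1r10 and Il1rapl1 in 8 and Cd226 in 7.

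On the 10 arrays, which are also those that chose these genes, their mean was set beside the level of the hybridization controls as a description. The mean of the 14 genes was 5.27 to 6.69 on BALB/c replicates 3 to 6 and 3.70 and 4.25 on BALB/c replicates 1 and 2, against 3.18 to 3.67 on the C57BL/6 arrays. On the 79 arrays outside the comparison the mean ranged between 3.39 and 6.63 with a median of 3.69. Of these arrays, 31 had a control level at least that of BALB/c replicate 3 (11.18). Their mean of the 14 genes had a median of 3.94 and reached 6.63 at the highest. It was at or above 5.27 on 4 of these arrays and at or under 4.25 on 21. Of the 14 genes, 4 were called with the control level as a covariate in a fit without the 5 arrays that went against their labels. In that fit 58 of all 90 genes were called. The part of the control level in these results was not tested.

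**Figure D4:**
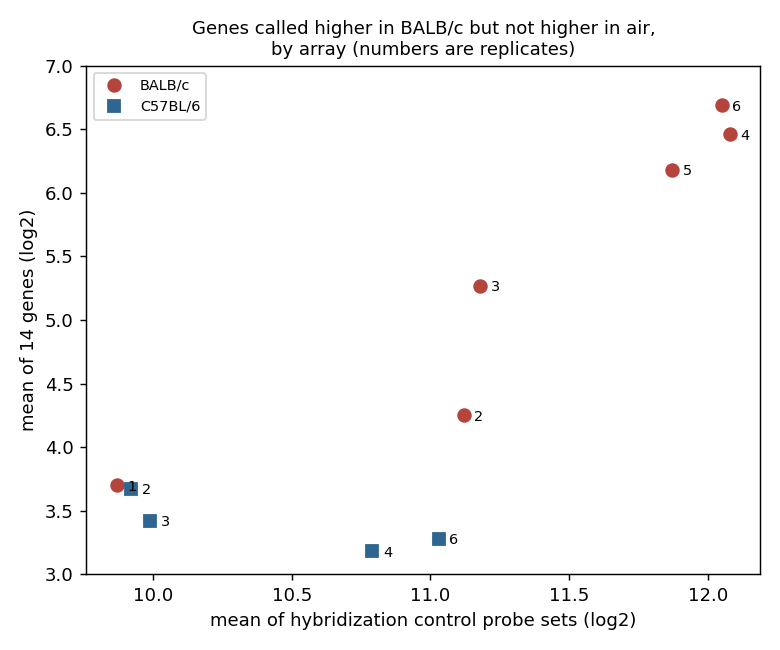
Mean log2 signal of the 14 genes called higher in BALB/c at 168 h but not higher in air (y axis) against the mean of the hybridization control probe sets (x axis, log2) on the 10 arrays, red circles for BALB/c, blue squares for C57BL/6, numbers for replicates. BALB/c replicates 4, 5 and 6 are at the upper right, and BALB/c replicate 1 (9.87, 3.70) lies beside the C57BL/6 arrays.

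The largest rise among genes of the allergic airway was in Itln1, intelectin, a lectin secreted with mucus by goblet cells. It was 5.79 at the lowest, 7.80 at the median and 8.85 at the highest in BALB/c lungs, against 3.32, 3.78, 6.57 and 3.84 in C57BL/6 lungs. It rose by 3.04 ± 0.57 (at least 5.41-fold, adjusted p = 0.00101), and the groups overlapped because C57BL/6 replicate 4 lay above BALB/c replicates 1 and 2. In air the strains differed by 0.59 (adjusted p = 1). Relative to air, Itln1 rose by 3.29 ± 0.53 in BALB/c (adjusted p = 6.53e-05) and differed by 0.85 ± 0.57 in C57BL/6 (adjusted p = 0.648), but the difference between these responses, 2.44 ± 0.78, had an adjusted p of 0.845. Without BALB/c replicates 4, 5 and 6 the strain difference was 2.15 ± 0.65 (adjusted p = 0.376). Itln1 was called in 18 of 21 alternative fits, with adjusted p between 3.66e-05 and 1.

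The other 14 goblet cell and mucus genes tested were not called, and the median of the list was 0.14. Muc5b, a gel-forming mucin, was 6.59 at the lowest, 8.84 at the median and 8.95 at the highest in BALB/c lungs, against 7.75, 6.23, 9.95 and 6.49 in C57BL/6 lungs (0.58 ± 0.54, adjusted p = 0.817). Muc5ac, the mucin of allergic goblet cells, was 4.82 to 5.71 in BALB/c lungs, against 7.89 on C57BL/6 replicate 4 and 4.16 to 5.12 on the other C57BL/6 arrays (-0.17 ± 0.59, adjusted p = 0.956). C57BL/6 replicate 4 was thus the highest of its group for Itln1, Muc5b and Muc5ac.

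None of the 12 tested genes of the type 2 cytokine axis was called, and their median was 0.07. The messages of Il4 and Il13 were low in both strains and differed by 0.16 ± 0.23 and 0.31 ± 0.27 (adjusted p = 0.88 and 0.801). Il5ra, the receptor chain through which interleukin 5 acts on eosinophils, was 5.02 at the lowest, 6.30 at the median and 8.46 at the highest in BALB/c lungs, against 4.78, 4.64, 4.85 and 5.58 in C57BL/6 lungs (1.42 ± 0.51, adjusted p = 0.241). Without BALB/c replicates 4, 5 and 6 the difference of Il5ra was 0.45 ± 0.56, and with the control level as a covariate, without the 5 arrays that went against their labels, it was 0.54 ± 0.29. The chemokines that attract eosinophils, Ccl11 and Ccl24, differed by 0.69 ± 0.49 (adjusted p = 0.725) and -0.40 ± 0.43 (adjusted p = 0.837). Of 15 genes of alternatively activated macrophages none was called, 3 were higher in BALB/c and the median was -0.39. Arg1, arginase, averaged 5.52 ± 0.85 in BALB/c and 6.84 ± 0.57 in C57BL/6 lungs (-1.33 ± 0.59, adjusted p = 0.45).

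Over all 42 gene lists, 461 different genes were tested and 7 were called (1.52%, against 0.597% of all genes tested), each in a list of its own. They were H2-Ea, Gbp2b, Itln1 and Ifi202b, which rose, and Trim12a, Klra8 and Npas2, which fell. The lists were chosen with earlier results of these data known, so these shares are a description and not a test. In 35 lists no member was called. The widest medians were those of erythroid and cardiac muscle genes. The 5 erythroid genes had a median of 1.73 and none was called on the probe set that represented it. This beta globin gene was 11.60 at the lowest, 12.07 at the median and 12.46 at the highest in BALB/c lungs, against 11.55, 7.98, 9.27 and 10.18 in C57BL/6 lungs (2.31 ± 0.64, adjusted p = 0.0684). It was called in 6 of 21 alternative fits (adjusted p between 0.0133 and 1 over the 21), among them the one without the 5 arrays that went against their labels (2.31, adjusted p = 0.0256). Its other probe sets, in a fit over all probe sets, passed the threshold and were higher in BALB/c by 2.48 ± 0.54 (adjusted p = 0.00741) and 1.96 ± 0.50 (adjusted p = 0.0396). Globin genes are close copies that probes may not separate. Hba-a1, an alpha globin gene, differed by 1.73 ± 0.67 (adjusted p = 0.307).

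Cardiac muscle genes had a median of -1.34 over 10 genes, none of them called. Their mean was 5.31 to 7.59 in BALB/c lungs, against 10.17 on C57BL/6 replicate 4, 8.35 on replicate 2 and 5.96 and 6.28 on the other C57BL/6 arrays. Myl7 and Myl4, myosin light chains of the atria, differed by -1.48 ± 1.03 (adjusted p = 0.722) and -1.24 ± 0.85 (adjusted p = 0.718). The mean of the 14 endothelial markers was 7.89 to 8.93 on the BALB/c arrays, against 6.98 on C57BL/6 replicate 4 and 8.04 to 9.10 on the other C57BL/6 arrays. The endothelial median was 0.36, with 13 of 14 genes higher in BALB/c and none called. Without C57BL/6 replicate 4, 47 genes were called over all genes.

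The mean of 13 interferon-stimulated genes was 5.57 to 6.06 in BALB/c lungs, against 6.16 to 6.57 in C57BL/6 lungs, without overlap. In air it was 5.87 to 6.11 in BALB/c lungs, against 6.19 to 6.65 in C57BL/6 lungs, also without overlap. Their median difference was -0.55, 12 of the 13 were lower in BALB/c and none was called. Ifit1, which binds foreign RNA, differed by -1.16 ± 0.57 (adjusted p = 0.52) and Ifit2 by -0.29 ± 0.44 (adjusted p = 0.886). Of the 42 lists, 3 had means that did not overlap at 168 h, all lower in BALB/c. The others were 13 MHC class I genes, at 6.69 to 7.02 in BALB/c lungs, against 7.09 to 7.38 in C57BL/6 lungs, and 12 eicosanoid and phospholipase genes, at 5.84 to 6.25 in BALB/c lungs, against 6.26 to 6.49 in C57BL/6 lungs. In air the class I means did not overlap either (6.76 to 6.83 in BALB/c and 7.09 to 7.31 in C57BL/6 lungs), while the eicosanoid means did. These means use 1 probe set for each gene. For the class I gene H2-D1 the one used differed by -0.50 ± 0.32. Others of its probe sets were higher in BALB/c by 5.41 ± 0.58 and 4.55 ± 0.51 (adjusted p = 2.11e-10 and 9.33e-10 over all probe sets tested). The remaining ones differed by 0.78 ± 0.43 and -0.26 ± 0.21. C1qb, a chain of the complement component that starts the classical pathway, had the largest difference among the 13 complement genes, of which none was called. It was 3.43 at the lowest, 4.41 at the median and 6.20 at the highest in BALB/c lungs, against 6.14, 7.22, 7.20 and 6.51 in C57BL/6 lungs (-2.10 ± 0.75, adjusted p = 0.241). Without BALB/c replicates 4, 5 and 6 the difference of C1qb was -1.21 ± 0.88, and with the covariate it was -1.0 ± 0.48. Over all genes tested the median was -0.08 and 41.2% were higher in BALB/c.

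**Figure D5:**
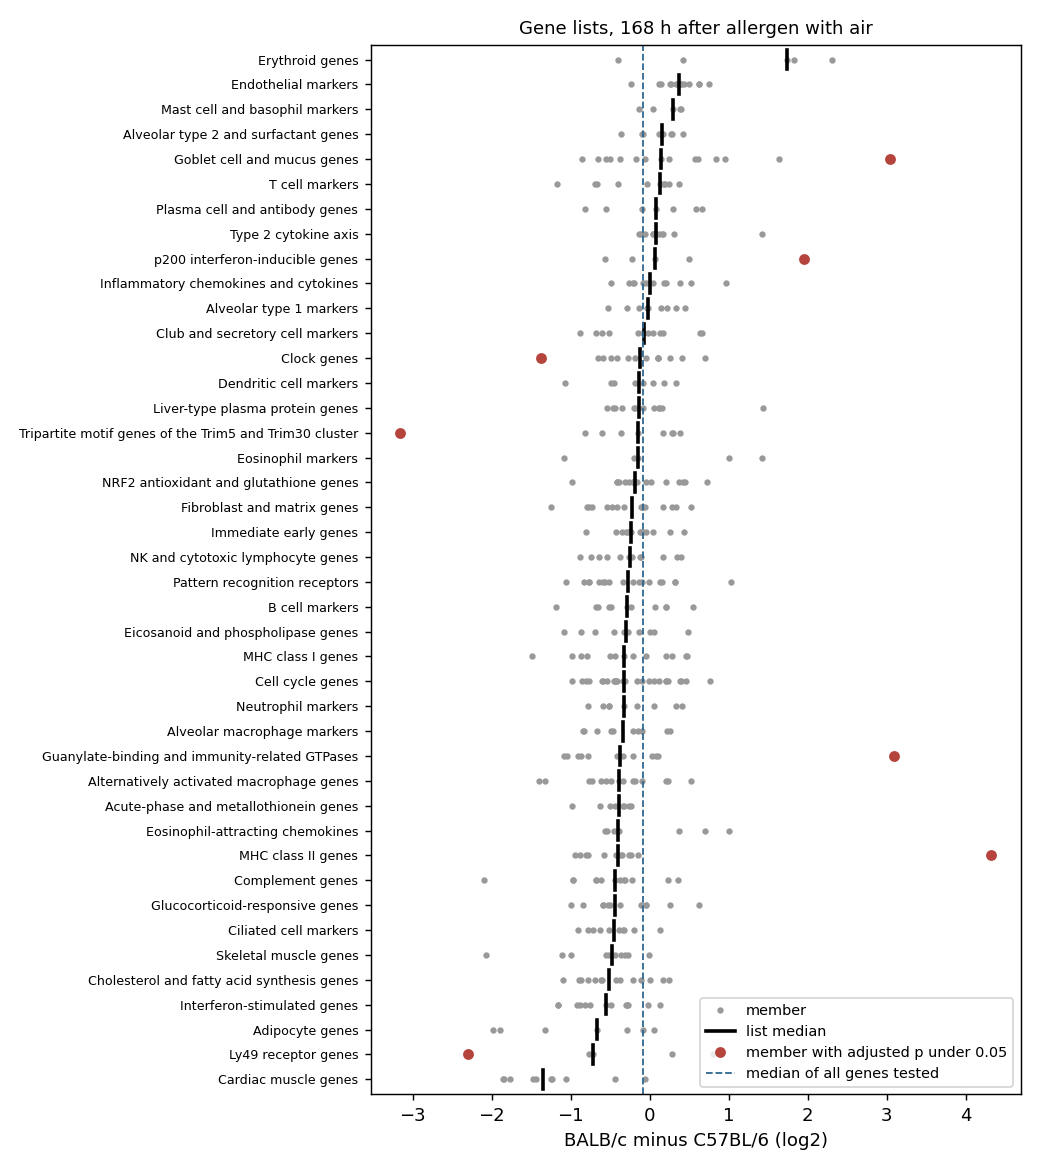
Log2 difference (BALB/c minus C57BL/6, x axis) of the tested members of 42 gene lists (rows, ordered by median), with grey points for members, red points for the 7 with an adjusted p under 0.05, black bars for list medians and a dashed line at the median of all genes (-0.08). The red points stand far from the other members of their lists, and the erythroid (1.73) and cardiac muscle (-1.34) medians lie at the ends.

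A second measurement within the arrays was available for 31 of the 90 called genes, which had 44 further probe sets above the filter. Of these, 31 had the same sign as the one used, 14 of them at an unadjusted p under 0.05, and 3 had the opposite sign at an unadjusted p under 0.05. Where probe sets of a gene disagreed, the difference holds for the probe set used and not for the gene. Whether sequence differences between the strains under the probes play a part was not tested. Neighbouring genes were seldom called together. Another called gene lay within 5 tested genes of 4 of the 90 (4.44%), against 5.79% of all genes tested. These were Ankrd63 and Disp2 (-1.38 ± 0.35, adjusted p = 0.0373) on chromosome 2, and Nxpe4 and Nnmt (-1.19 ± 0.29, adjusted p = 0.0296) on chromosome 9. The calls of Ankrd63, Disp2, Nxpe4 and Nnmt were lost with the replicate block (adjusted p between 0.0631 for Nnmt and 0.0932 for Ankrd63).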

How the data were processed

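Male mouse lungs were measured on 89 Affymetrix HT Mouse430PM arrays after NuGEN amplification, per the labels' protocols. The deposited values were log2 signals of 45141 probe sets, which the authors had already normalized. Their software is not given in the sources used here. All arrays had the same median (4.90) and quartiles, which hides any difference in total RNA. The number of arrays limits the precision.

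Of the probe sets, 28898 had 1 gene symbol in the platform annotation, 551 had several, 15588 had none and 104 were controls. Each of 17097 genes was represented by its probe set with the highest mean over all arrays. Genes above the 40th percentile of all values (4.45) on at least 4 arrays were tested, 15065 in all. The filter, like the threshold of 0.05, holds for every comparison.

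Means of 18 groups were fitted with limma 3.58.1 in R 4.3.3, and the strain difference at 168 h, in 5 other exposures and its difference from air were contrasts with a two-sided moderated test and Benjamini-Hochberg adjustment over all genes. The groups share one estimate of spread with 71 residual degrees of freedom. Tests were run on simulated data with independent noise and, for each gene, the same spread in every group. Shared deviations of same-numbered arrays and an effect of the control level were not simulated, so that check does not cover them. Differences are given ± SE and group means ± SD. The 18 hybridization control probe sets were averaged on each array.

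Genes named were the 12 largest rises and 12 largest falls among calls (gene models passed over), the called members of 42 gene lists, Sftpd and H2-Ea, and the first 2 tested members of those lists that are described gene by gene. No gene was called in the difference from air, so that part of the rule named none. Any gene outside this rule, such as Il5ra, C1qb and H2-Eb1, was picked once its values were known. The members and lists were chosen with earlier results of these data known.

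Both strains carry replicates 2, 3, 4 and 6. Deviations of the 4 same-numbered pairs from their group means correlated at 0.23 to 0.29 over all genes (mean 0.26, against -0.05 for different numbers), so a fit with the replicate number as a block was run. Only 1 of 4 C57BL/6 arrays correlated best with its own number. Promoters come from RefSeq's GRCm38.p6.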

Additional observations from a re-analysis of the deposited data

Results flagged for a closer look

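Single arrays stood apart from their own group in the following results. They were 7 of 120 groups of arrays examined, and chance alone is expected to give about 1 in 20. Gbp2b was 5.15 on BALB/c replicate 6, against 7.06 to 7.26 on the other BALB/c arrays. Pttg1 was 5.15 on BALB/c replicate 4, against 6.88 to 7.84 on the others. Nnmt was 4.24 on BALB/c replicate 4, against 4.96 to 5.32. In C57BL/6 lungs, Itln1 was 6.57 on replicate 4, against 3.32 to 3.84, and Smim6 was 6.22 on replicate 6, against 7.20 to 7.36. H2-Eb1 was 10.69 on C57BL/6 replicate 3, against 9.82 to 9.92. The difference between the 3' and 5' actin probe sets, a sign of RNA quality, was 3.22 on C57BL/6 replicate 6, against 2.27 to 2.41 on the other C57BL/6 arrays. Over the groups this measure was 2.83 ± 0.37 in BALB/c and 2.58 ± 0.43 in C57BL/6 lungs (SD, n = 6 and 4; exact permutation test, two-sided, p = 0.338, adjusted 0.338).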

How the results depend on the processing

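The strain difference at 168 h gave 90 calls, and 59 with the replicate block. BALB/c replicates 4, 5 and 6 left out, an alternative chosen after seeing the data like the next, gave 14 calls, and BALB/c replicates 3, 4, 5 and 6 left out gave 10. Leaving out 1 array at a time gave 43 to 198 calls. The other alternatives gave 76 to 125 calls, among them 110 (56 higher, 54 lower) with the control level as a covariate without the 5 doubtful arrays, and 76 (21 higher, 55 lower) with only the 2 groups in the fit. Of the 110 calls 58 were among the 90, and of the 76 calls 48 were. With only the 2 groups, the calls of Itln1 (adjusted p = 0.118) and Fbp2 (adjusted p = 0.0659) were among those lost. The strain difference in air gave 77 calls, and 437 with only its 2 groups in the fit, 144 with the control level as a covariate without the doubtful arrays, and 54 to 78 with 1 array left out. The cause was not tested. The test of the difference from air gave 0 calls in every alternative run, including each array left out in turn. The difference in control level was 0.76 to 1.23 with 1 array left out, and at 1.23, without BALB/c replicate 1, its exact permutation p was 0.00794. The actin difference was 0.15 to 0.47. Of 37 called genes named in the text, 21 to 36 kept their call with 1 array left out, and 6 were called in every alternative that gave them a value, namely H2-Ea, Gbp2b, Tmem87a, Polr3gl, Pttg1 and Trim12a.

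Among single genes, signs turned in few results. With all probe sets averaged, Pdxdc1 was at 0.49. With the control level as a covariate without the doubtful arrays, H2-Ab1 was at 0.14, Gbp2 at 0.02, Il4 at -0.04 and Ifit2 at 0.24, and with it over all arrays H2-Ab1 was at 0.15, Gbp2 at 0.12, Il4 at -0.05, Il13 at 0 and Ifit2 at 0.31. With the replicate block H2-Aa was at 0.03. Without BALB/c replicates 4, 5 and 6, Muc5b was at -0.12, and without 3 to 6 it was at -0.82 and H2-Ab1 at 0.25. With 1 array left out, H2-Aa ranged between -0.27 and 0.02, Retnla between -0.13 and 0.49, Ifit2 between -0.51 and 0.08 and Muc5ac between -0.60 and 0.65. None of these was called in either direction except Pdxdc1. The median of all genes stayed between -0.11 and 0.01. List medians are given next without BALB/c replicates 4, 5 and 6, then with the covariate without the doubtful arrays. The GTPase list was at 0.01 and 0.17, and alternatively activated macrophage genes at -0.11 and -0.07. Class II genes were at -0.21 and -0.10 and cell cycle genes at -0.08 and -0.13. Interferon-stimulated genes were at -0.47 and -0.43, cardiac muscle genes at -1.40 and -0.90 and erythroid genes at 1.63 and 1.98. Genes near or under a signal of 4.45 cannot be told from background here.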
